A study of Homo sapiens with 4 samples.

Results

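To investigate how the genes of the splicing machinery behaved in cells without ZCCHC4, the splicing factor and hnRNP genes were drawn from an RNA-seq table of ZCCHC4 KO1 cells and WT cells. Members were the genes whose NCBI symbol begins with SRSF, HNRNP, SF3A, SF3B, PRPF, SNRP or U2AF, with a digit after the stem for SRSF, SF3A, SF3B and PRPF. The rule found 71 genes among the 16658 of the table, all protein-coding, and used no measured value. They comprised 12 SRSF, 23 HNRNP, 3 U2AF, 9 SF3, 12 SNRP and 12 PRPF genes. Both groups were untreated and labelled HepG2, the name of a line from a human liver tumor. The WT group was wild type, and the ZCCHC4 KO1 group was 1 line in which ZCCHC4 had been knocked out with CRISPR/Cas9. Each group had 2 libraries, and the labels do not say whether these came from separate cultures, so the p-values measure the spread between these libraries, which may be technical. With a single knockout line, an effect of the knockout and a difference between lines cannot be told apart. Total RNA was taken from whole cultures, in which fewer cells of a type and less RNA per cell cannot be told apart.

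Splicing removes introns from pre-mRNA in the spliceosome, which assembles anew on each intron from small nuclear ribonucleoproteins (snRNPs) and many further proteins. U2AF and SF1 mark the end of the intron and the branch point, the U2 snRNP with its SF3A and SF3B subunits takes over the branch point, and the U4/U6.U5 tri-snRNP, which holds several PRPF proteins, brings in the catalytic core. SR proteins, encoded by the SRSF genes, bind exons and mostly favor their inclusion, whereas many hnRNP proteins bind nearby and favor skipping. Many SR and hnRNP genes also limit their own output through alternative exons that send the mRNA to nonsense-mediated decay.

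The values were FPKM, a count of fragments per transcript length and library size that lets levels be compared between genes, and without read totals the sequencing depth is unknown. The targeted gene had an FPKM of 7.22 and 5.44 in WT against 1.08 and 2.29 in ZCCHC4 KO1 (log2 fold change -1.48; adjusted p = 0.0448 by limma, Benjamini-Hochberg over all tested genes). Without ZCCHC4 KO1 replicate 1, the adjusted p of ZCCHC4 was 0.0514 and its log2 fold change -1.15. Of 20 genes typical of hepatocytes or HepG2 cells, the table listed 11, and 0 of them came to an FPKM of 1 in any library. AFP was at 0 and 0.05 in WT and at 0 in both ZCCHC4 KO1 libraries. The label HepG2 was therefore not borne out by these markers, and the cells are called by the names of their groups.

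Most splicing genes were highly expressed and differed little between the groups. Of the 71 members, 68 passed the filter (2 or more libraries at an FPKM of 1 or above) and were tested. The other members, SRSF12, HNRNPCL1 and HNRNPCL2, stayed at or below 0.15 in every library. An FPKM of 10 was reached in all 4 libraries by 59 members, and 60 of the tested members lay above the median level of the 10726 tested genes. HNRNPA1, with an FPKM of 803.02 and 736.58 in WT against 586.72 and 707.88 in ZCCHC4 KO1, was the member with the highest level. SNRPB, HNRNPC, HNRNPAB, HNRNPA2B1 and SRSF2 followed, with mean FPKM between 306 and 520.1 over the 4 libraries.

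U2AF1L4 rose in ZCCHC4 KO1 cells, and it was the only member called by limma at an adjusted p below 0.05. Across all tested genes, 5.98% were called at that threshold, 1.50% as higher and 4.48% as lower. Of the members, 1 of 68 (1.47%) was called higher and 0 lower. At an unadjusted p under 0.05, 7 members were higher and 2 lower, beside 8.96% and 13.9% of all tested genes. At an adjusted p below 0.001 with a fold change of at least 2, the thresholds of the study, limma called no member, against 0.0746% of all tested genes (8 of 10726). The paper reported many more genes at these thresholds by a test it does not name. The absence of a call here therefore does not carry over to the calls of the paper. The median log2 fold change of the members was 0.03, beside -0.03 over all tested genes, and 39 were above 0 and 29 below. Absolute log2 fold changes under 0.3 were found for 79.4% of the members and for 57.7% of all tested genes. These shares were not matched for level, and the median FPKM was 72.7 for the members and 10.9 for all tested genes. The libraries of the groups did not overlap for 27 members, 15 of them higher (22.1%, against 23.1% of all tested genes) and 12 lower (17.6%, against 28.5%).

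**Figure D1:**
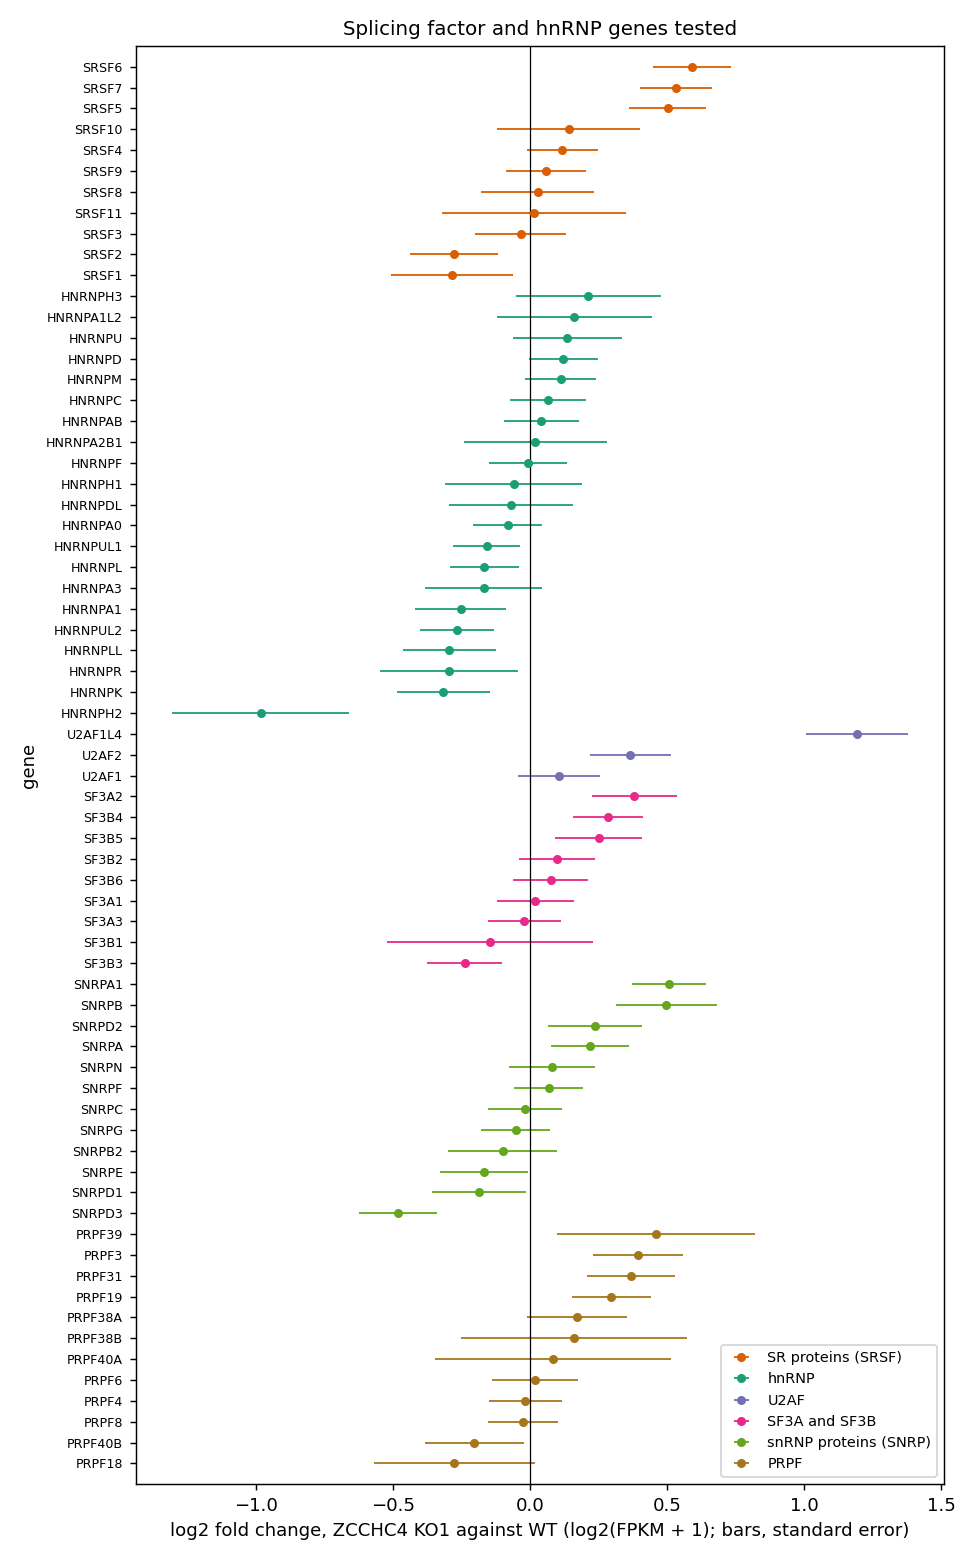
Log2 fold change of ZCCHC4 KO1 against WT on the log2(FPKM + 1) scale for the 68 tested genes, grouped by family, with bars of 1 standard error from limma (2 libraries per group). U2AF1L4 lies farthest to the right at 1.19 and HNRNPH2 farthest to the left at -0.98, and most other genes lie within 0.3 of 0.

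One limit applies to all of these comparisons. Within each group the libraries differed with the GC content of the transcripts, and in opposite directions by replicate number. Of the 33 tested members with a GC content below 45%, 26 were higher in WT replicate 1 than in WT replicate 2, and 31 were higher in ZCCHC4 KO1 replicate 2 than in replicate 1. Of the 11 with a GC content above 55%, 1 and 0 did so. Across the 68 members, which share their 4 libraries and are not independent replicates, the Spearman correlation of GC content with the difference between replicates (2 minus 1) came to 0.772 for WT and -0.801 for ZCCHC4 KO1. The transcripts of members had a median GC content of 45.3%, beside 48.7% over the tested genes with a value. The log2 fold change between the groups also rose with GC content (Spearman correlation 0.293 across the 68 members). Its median was -0.03 for members below 45% and 0.30 for members above 55%, beside -0.10 and 0.09 for all tested genes.

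**Figure D2:**
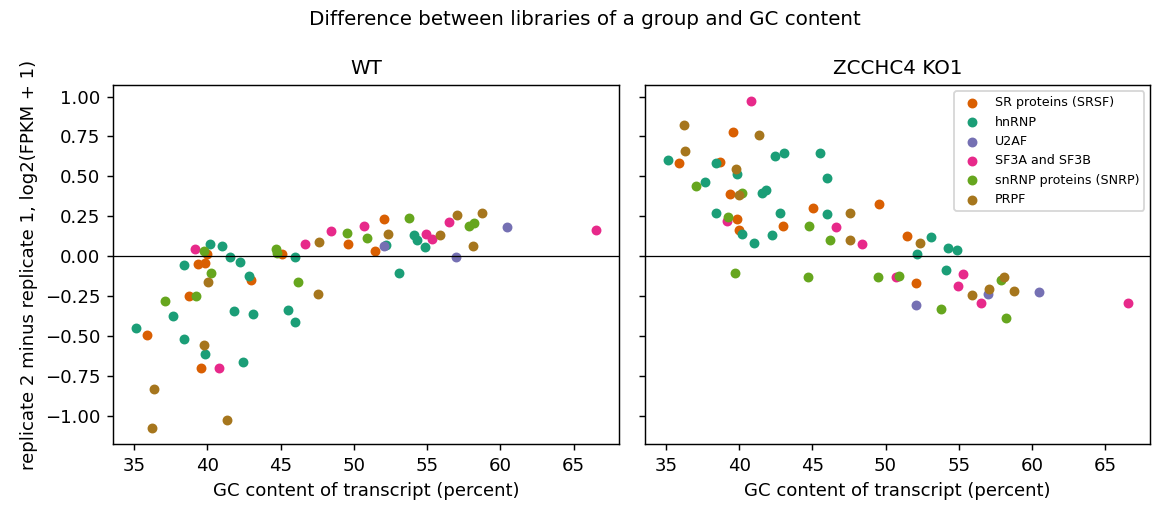
Difference between replicate 2 and replicate 1 on the log2(FPKM + 1) scale against the GC content of the transcript (percent) for the 68 tested members, in WT (left) and in ZCCHC4 KO1 (right), with colors for the families. Of the 33 members with a GC content below 45%, 26 lie below 0 in WT and 31 above 0 in ZCCHC4 KO1, and most members above 55% lie on the other side.

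The comparison was therefore repeated with the trend on GC content removed from each library. With it removed, limma called 6 members higher (8.82%, against 7.08% of all tested genes) and 3 lower (4.41%, against 13.0%). With quantile normalization, 4 were called higher (5.88%, against 4.34%) and 1 lower (1.47%, against 6.72%), and with median-ratio scaling 1 higher (1.47%, against 3.23%) and 1 lower (1.47%, against 6.19%). The 6 higher with the GC trend removed were U2AF1L4, SRSF5, SRSF6, SRSF7, SNRPA1 and SNRPB, and the 3 lower ones were HNRNPH2, SNRPD3 and HNRNPR. Each of these genes, U2AF1L4 included, passed only in some of the settings tried, and each is described with its family below.

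**Figure D3:**
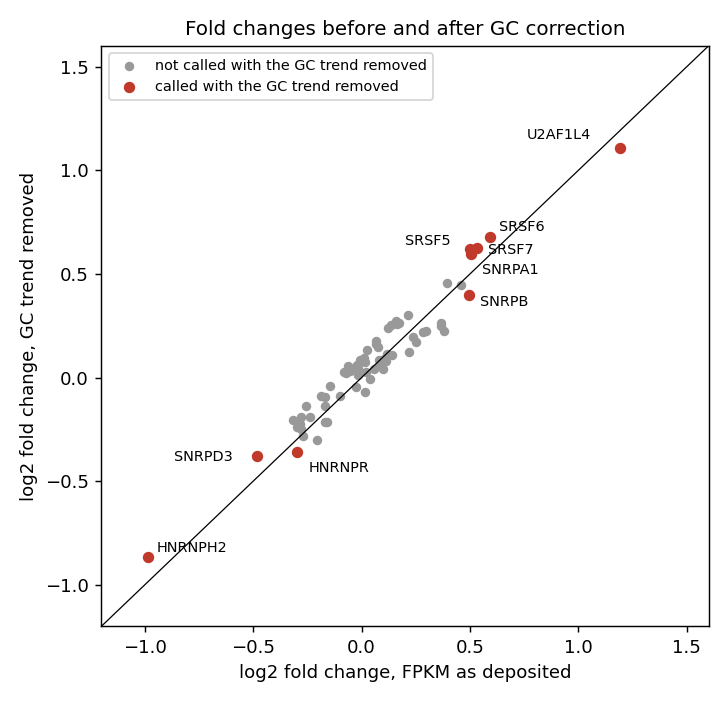
Log2 fold change of ZCCHC4 KO1 against WT for the 68 tested members, with FPKM as deposited (x axis) and with the GC trend removed (y axis). Named points, in red, are the 9 members called at an adjusted p below 0.05 with the trend removed, and all 9 keep the sign they had before.

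Among the SR proteins, SRSF5, SRSF6 and SRSF7 stood higher in ZCCHC4 KO1 cells, and SRSF1 and SRSF2 stood lower, without passing the test on the values as deposited. SRSF6 had an FPKM of 48.01 and 46.69 in WT against 66.19 and 77.89 in ZCCHC4 KO1 (log2 fold change 0.59, standard error 0.141, adjusted p = 0.0730). SRSF7 was at 156.58 and 158.31 in WT against 215.16 and 241.63 in ZCCHC4 KO1 (log2 fold change 0.53, standard error 0.131, adjusted p = 0.0785). SRSF5 was at 71.26 and 64.16 in WT against 89.88 and 102.88 in ZCCHC4 KO1 (log2 fold change 0.50, standard error 0.140, adjusted p = 0.102). In all of these genes both ZCCHC4 KO1 libraries lay above both WT libraries, and the WT libraries lay close together. With the GC trend removed, the log2 fold changes were 0.68 for SRSF6, 0.62 for SRSF7 and 0.62 for SRSF5 (adjusted p = 0.00893, 0.0165 and 0.00419 from limma). SRSF6 and SRSF7 also passed with quantile normalization (adjusted p = 0.0414 and 0.0278), where SRSF5 did not (adjusted p = 0.0697). Of the 3, SRSF6 passed without ZCCHC4 KO1 replicate 1 (adjusted p = 0.0401), and no other call was made with 1 library left out. The transcripts of these genes had a GC content of 39.8%, 40.0% and 43.0%, and the nearest 20 tested genes had median log2 fold changes of 0.16, 0.06 and -0.13.

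SRSF2, the SR gene with the highest level, had an FPKM of 324.94 and 343.48 in WT against 245.42 and 308.59 in ZCCHC4 KO1 (log2 fold change -0.28, standard error 0.160, adjusted p = 0.373). Both ZCCHC4 KO1 libraries lay below both WT libraries, and the log2 fold change was -0.11 without ZCCHC4 KO1 replicate 1 and -0.44 without ZCCHC4 KO1 replicate 2. SRSF1, the founding member of the family, was at 103.91 and 87.52 in WT against 63.41 and 96.06 in ZCCHC4 KO1, so the groups overlapped (log2 fold change -0.29, standard error 0.223, adjusted p = 0.520). Its value depended on 1 library, since the log2 fold change was 0.01 without ZCCHC4 KO1 replicate 1 and -0.58 without ZCCHC4 KO1 replicate 2. The other tested SR genes, SRSF3, SRSF4, SRSF8, SRSF9, SRSF10 and SRSF11, had log2 fold changes between -0.03 and 0.14, and of these only SRSF4 had groups that did not overlap. Over the family, 8 of 11 tested genes had a log2 fold change above 0, with a median of 0.06. All 11 tested SR genes, against 48.7% of the tested genes with an annotation, had at least 1 transcript annotated as a target of nonsense-mediated decay in GENCODE, with a median of 2 per gene. FPKM per gene do not separate such transcripts from those that encode the full protein.

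**Figure D4:**
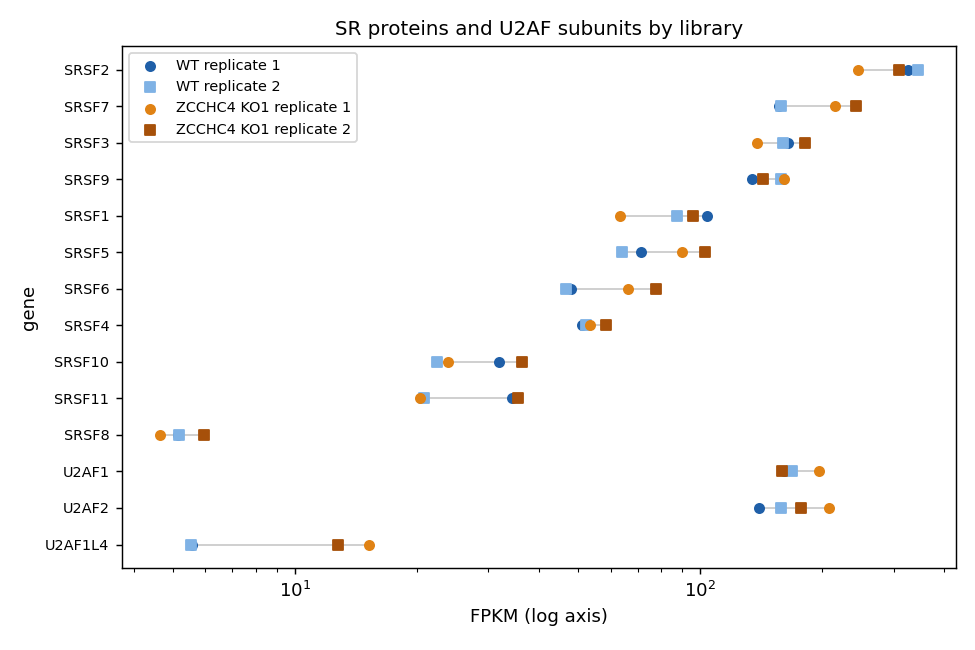
FPKM (log axis) of the 11 tested SR genes and the 3 U2AF genes in each of the 4 libraries, joined by a grey line from the lowest to the highest value. The orange ZCCHC4 KO1 points lie to the right of the blue WT points for SRSF5, SRSF6, SRSF7, U2AF2 and U2AF1L4, and the points of SRSF1, SRSF10 and SRSF11 mix.

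The promoters of these 3 SR genes and of U2AF1L4 are shown because they are the SR and U2AF genes that rose with the GC trend removed. Each sequence is the stretch of 250 bases before a start site listed by RefSeq (GRCh38.p14), read 5′ to 3′ on the strand of the gene, with capitals for exact matches on either strand of any of 6 short motifs. These were the TATA box (TATAAA), the CCAAT box (CCAAT), the GC box (GGGCGG), an ETS site (CCGGAAG), an E-box (CACGTG) and a CRE (TGACGTCA), which did not overlap each other in the matches shown. SRSF5 lies on the plus strand of chromosome 14 (chr14:69766892-69767141 for the stretch shown), SRSF6 on the plus strand of chromosome 20 (chr20:43457646-43457895), SRSF7 on the minus strand of chromosome 2 (chr2:38751495-38751744) and U2AF1L4 on the minus strand of chromosome 19 (chr19:35745419-35745668).
SRSF5: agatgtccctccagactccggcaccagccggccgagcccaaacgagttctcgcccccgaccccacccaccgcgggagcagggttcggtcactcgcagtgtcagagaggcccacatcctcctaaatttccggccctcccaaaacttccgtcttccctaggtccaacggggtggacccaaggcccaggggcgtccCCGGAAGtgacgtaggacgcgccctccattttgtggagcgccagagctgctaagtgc
SRSF6: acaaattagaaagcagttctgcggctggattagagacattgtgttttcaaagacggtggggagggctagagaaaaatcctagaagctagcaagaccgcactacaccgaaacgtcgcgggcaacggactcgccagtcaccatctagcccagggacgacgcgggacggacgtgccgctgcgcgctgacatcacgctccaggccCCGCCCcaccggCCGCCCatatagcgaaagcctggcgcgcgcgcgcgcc
SRSF7: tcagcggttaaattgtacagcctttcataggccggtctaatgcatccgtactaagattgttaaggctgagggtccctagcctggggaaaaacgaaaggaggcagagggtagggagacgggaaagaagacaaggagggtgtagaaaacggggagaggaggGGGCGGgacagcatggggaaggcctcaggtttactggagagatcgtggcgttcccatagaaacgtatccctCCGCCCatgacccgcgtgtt
U2AF1L4: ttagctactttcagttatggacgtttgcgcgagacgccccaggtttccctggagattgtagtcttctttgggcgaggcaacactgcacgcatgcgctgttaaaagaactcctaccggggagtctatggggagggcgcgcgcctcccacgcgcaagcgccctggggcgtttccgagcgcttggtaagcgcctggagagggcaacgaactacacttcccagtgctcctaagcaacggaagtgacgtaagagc
The capitals mark an ETS match in SRSF5 and GC boxes in SRSF6 and SRSF7, and 0 of the 6 motifs matched in U2AF1L4. Promoters were listed for 61 of the tested members. A GC box was found in 59.0% of these, beside 69.3% of the 8827 promoters of tested genes, a CCAAT box in 42.6% beside 35.6%, an ETS site in 34.4% beside 17.5%, a TATA box in 9.84% beside 5.05% and an E-box in 11.5% beside 9.19%. The letters of the CRE were found in 0 of the 61, beside 3.06%. Such matches describe the letters only.

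U2AF1L4, a gene related to U2AF1 that encodes a small subunit of the U2 auxiliary factor, had an FPKM of 5.56 and 5.53 in WT against 15.23 and 12.79 in ZCCHC4 KO1. Both ZCCHC4 KO1 libraries were far above both WT libraries, which were nearly equal. The mean rose from 5.55 ± 0.0212 to 14.0 ± 1.73 (SD, n = 2 each), a difference of 1.19 on the log2 scale (standard error 0.186, adjusted p = 0.0257). The gene lies on chromosome 19 from 35742464 to 35745418, and 15 of the nearest 20 tested genes were higher (median difference 0.15 on the log2 scale). With the GC trend removed its log2 fold change was 1.11 (adjusted p = 0.00497). It was 1.20 without WT replicate 1 and 1.19 without WT replicate 2, where the adjusted p rose to 0.0898 and 0.0989. With no filter on low values the adjusted p was 0.0583. Of the 31-base stretches of its transcript, 55.65% also occur in transcripts of the annotated gene ENSG00000267120, so reads could be divided differently between them and the value of U2AF1L4 is uncertain.

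The main U2AF subunits were expressed at much higher levels. U2AF2, the large subunit that binds the polypyrimidine tract, was at 139.23 and 158.46 in WT against 207.30 and 177.26 in ZCCHC4 KO1 (log2 fold change 0.37, adjusted p = 0.217). The groups did not overlap, but the gene did not pass the test. With the GC trend removed it did not pass either (log2 fold change 0.25, adjusted p = 0.0967 from limma). U2AF1, the small subunit that reads the end of the intron, was at 160.72 and 168.13 in WT against 196.60 and 159.18 in ZCCHC4 KO1 (log2 fold change 0.11, adjusted p = 0.742). Its groups overlapped, and 98.7% of the 31-base stretches of its transcript occur in a second annotated gene of GRCh38, so its level is uncertain. U2AF1L5 was not analysed here.

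The SF3A and SF3B genes, whose products hold the U2 snRNP on the branch point, showed small differences, with 0 of 9 called. SF3B2 had the highest level of the family, at 139.63 and 154.08 in WT against 167.39 and 147.27 in ZCCHC4 KO1 (log2 fold change 0.10, adjusted p = 0.738). SF3A2 had the highest log2 fold change, from 74.77 and 84.11 in WT to 114.54 and 93.45 in ZCCHC4 KO1 (0.38, standard error 0.155, adjusted p = 0.223). SF3B3 had the lowest, from 49.74 and 55.65 to 43.18 and 45.65 (-0.24, standard error 0.135, adjusted p = 0.364). Neither gene had overlapping groups. SF3B4 did not overlap either, at 122.59 and 132.25 in WT against 161.40 and 149.21 in ZCCHC4 KO1 (log2 fold change 0.28, adjusted p = 0.264). With the GC trend removed, limma gave 0.23 for SF3A2, -0.19 for SF3B3 and 0.22 for SF3B4 (adjusted p = 0.126, 0.221 and 0.153). SF3B1, the subunit often mutated in blood cancers, shows how much the libraries of a group could differ, at 40.09 and 24.37 in WT against 19.85 and 39.85 in ZCCHC4 KO1. Its log2 fold change was -0.15 with a standard error of 0.376 (adjusted p = 0.863).

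Of the 12 SNRP genes, which encode the Sm ring shared by the snRNPs and proteins particular to the U1 and U2 snRNPs, 0 were called on the values as deposited. SNRPB, which encodes the Sm protein B, had the highest level of the family, at 398.42 and 460.81 in WT against 691.84 and 529.39 in ZCCHC4 KO1 (log2 fold change 0.50, standard error 0.185, adjusted p = 0.188). SNRPA1, a protein of the U2 snRNP, was at 57.16 and 51.12 in WT against 74.42 and 80.09 in ZCCHC4 KO1 (log2 fold change 0.51, standard error 0.134, adjusted p = 0.0915). SNRPD3, another protein of the Sm ring, was at 38.69 and 39.23 in WT against 25.77 and 29.52 in ZCCHC4 KO1 (log2 fold change -0.48, standard error 0.143, adjusted p = 0.116). In all of these genes the groups did not overlap, SNRPB and SNRPA1 standing higher in ZCCHC4 KO1 and SNRPD3 lower. With the GC trend removed, SNRPB (log2 fold change 0.40, adjusted p = 0.0161) and SNRPA1 (0.59, adjusted p = 0.00755) rose and SNRPD3 (-0.38, adjusted p = 0.0387) fell, according to limma. SNRPB also passed with quantile normalization (adjusted p = 0.0217). Without ZCCHC4 KO1 replicate 1 its log2 fold change was 0.30, and without ZCCHC4 KO1 replicate 2 it was 0.69. The log2 fold change of SNRPD3 ran from -0.58 to -0.39 with 1 library left out.

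SNRPN, a close relative of SNRPB from an imprinted locus on chromosome 15, was at 16.17 and 17.61 in WT against 18.73 and 17.08 in ZCCHC4 KO1 (log2 fold change 0.08, adjusted p = 0.817). The FPKM of SNRPB and SNRPN together summed to 414.59 and 478.42 in WT against 710.57 and 546.47 in ZCCHC4 KO1, and the log2 ratio of these sums was 0.49. SNRPN shares 52.5% of its 31-base stretches with SNURF, which comes from the same locus, and its level is uncertain. SNRPA1 shares 46.6% of them with the pseudogene SNRPA1P1 and SNRPD3 14.35% with ENSG00000286070, so their values are also uncertain. The other SNRP genes, SNRPA, SNRPB2, SNRPC, SNRPD1, SNRPD2, SNRPE, SNRPF and SNRPG, had log2 fold changes between -0.19 and 0.24, and 1 of them, SNRPA, had groups that did not overlap.

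The PRPF genes, named after yeast mutants in pre-mRNA processing, were not called either, with 8 of 12 above 0 and a median log2 fold change of 0.12. PRPF8, the large protein at the heart of the spliceosome, had the highest level and hardly differed, at 126.11 and 139.06 in WT against 126.24 and 133.89 in ZCCHC4 KO1 (log2 fold change -0.03, adjusted p = 0.935). Values without overlap were higher for 3 of the 12 genes and lower for 1, PRPF40B, beside 23.1% and 28.5% of all tested genes. PRPF3, a tri-snRNP protein, was at 40.81 and 34.51 in WT against 45.08 and 54.50 in ZCCHC4 KO1 (log2 fold change 0.39, adjusted p = 0.231). PRPF31, also of the tri-snRNP, was at 46.42 and 56.32 in WT against 71.50 and 61.44 in ZCCHC4 KO1 (0.37, adjusted p = 0.246). PRPF19, the ubiquitin ligase of the Prp19 complex, was at 101.80 and 111.61 in WT against 142.55 and 120.61 in ZCCHC4 KO1 (0.30, adjusted p = 0.294). None of the 3 passed with the GC trend removed. PRPF39, a factor of the U1 snRNP, had the highest log2 fold change of the family, 0.46, and PRPF18, a factor of the final step of splicing, the lowest, -0.28. Both were low and their groups overlapped, PRPF39 at 3.99 and 1.81 in WT against 3.09 and 5.47 in ZCCHC4 KO1, and PRPF18 at 6.71 and 4.25 in WT against 3.34 and 5.35 in ZCCHC4 KO1 (adjusted p = 0.524 and 0.644). The value of PRPF39 ran from 0.044 without WT replicate 2 to 0.87 without WT replicate 1, and that of PRPF18 from -0.55 without WT replicate 2 to -9.2e-05 without WT replicate 1.

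Among the hnRNP genes, 13 of 21 tested members had a log2 fold change below 0, with a median of -0.07, and 0 were called. For 8 of them both ZCCHC4 KO1 libraries lay below both WT libraries, and for 1, HNRNPD, both lay above, beside 28.5% and 23.1% of all tested genes. The median of -0.07 stood beside -0.03 over all tested genes. With median-ratio scaling it was 0.00 beside 0.04, and with quantile normalization -0.08 beside 0.04. With the GC trend removed it was 0.02 beside -0.02. The family thus lay below the median of all tested genes except with the GC trend removed. HNRNPA1, which binds exonic silencers and shuttles mRNA, differed by -0.25 on the log2 scale (standard error 0.165, adjusted p = 0.432). HNRNPK, which binds poly(C) stretches, was at 329.14 and 328.21 in WT against 229.86 and 302.27 in ZCCHC4 KO1 (log2 fold change -0.32, adjusted p = 0.339). Beside the nearly equal WT values, the ZCCHC4 KO1 libraries of HNRNPK lay far apart. Without ZCCHC4 KO1 replicate 1 the log2 fold changes of HNRNPA1 and HNRNPK were both -0.12, and without ZCCHC4 KO1 replicate 2 they were -0.39 and -0.51. HNRNPA2B1, an RNA-binding protein related to HNRNPA1, was at 364.70 and 254.79 in WT against 252.09 and 377.90 in ZCCHC4 KO1, so that each group covered nearly the same range (log2 fold change 0.02, adjusted p = 0.979).

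HNRNPH2 was the lowest member by fold change. Its FPKM was 5.21 and 2.93 in WT against 1.01 and 2.10 in ZCCHC4 KO1, that is, -0.98 on the log2 scale (standard error 0.323, adjusted p = 0.145). The groups did not overlap, although the WT libraries differed by more than the distance from the lower WT to the higher ZCCHC4 KO1 library. It passed with the GC trend removed (-0.87, adjusted p = 0.0350), with median-ratio scaling (-0.94, adjusted p = 0.0196) and with quantile normalization (-0.90, adjusted p = 0.0405). With 1 library left out, it passed without WT replicate 2 (-1.31, adjusted p = 0.0182) and without ZCCHC4 KO1 replicate 2 (-1.30, adjusted p = 0.0270), and it did not pass without WT replicate 1 (-0.65, adjusted p = 0.582) or without ZCCHC4 KO1 replicate 1 (-0.67, adjusted p = 0.317). HNRNPH2 lies on chromosome X from 101408222 to 101414133, and of the nearest 20 tested genes 15 were lower (median difference -0.46 on the log2 scale). The part of these neighbors in the result was not tested. HNRNPH1, the autosomal gene for a closely related protein that binds G-rich stretches, was at 243.74 and 189.61 in WT against 164.48 and 258.12 in ZCCHC4 KO1 (log2 fold change -0.06, adjusted p = 0.921). Because HNRNPH1 made up most of their total, the sum of both genes had a log2 ratio of -0.05. HNRNPH2 shares 14.7% of its 31-base stretches with the annotated read-through RPL36A-HNRNPH2.

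HNRNPR, an RNA-binding protein related to SYNCRIP, was at 110.29 and 80.60 in WT against 61.92 and 94.70 in ZCCHC4 KO1, with overlapping groups (log2 fold change -0.30, standard error 0.252, adjusted p = 0.557). Its transcript had a GC content of 35.1%, the lowest of the tested members. With the GC trend removed HNRNPR fell (log2 fold change -0.36, adjusted p = 0.0390 from limma). It did not pass with median-ratio scaling (-0.22, adjusted p = 0.664) or with quantile normalization (-0.30, adjusted p = 0.456). On the values as deposited its log2 fold change was 0.0061 without ZCCHC4 KO1 replicate 1 and -0.60 without ZCCHC4 KO1 replicate 2. HNRNPH3 had the highest log2 fold change of the family, 0.21, with overlapping groups at 69.83 and 45.34 in WT against 54.59 and 78.29 in ZCCHC4 KO1 (adjusted p = 0.698). HNRNPA1L2, a copy of HNRNPA1 without introns, was at 4.38 and 3.26 in WT against 3.28 and 5.70 in ZCCHC4 KO1 (log2 fold change 0.16, adjusted p = 0.794). Since 100% of its 31-base stretches occur in other annotated transcripts, its level is uncertain. Both genes together had a log2 ratio of -0.25, the value of HNRNPA1 itself.

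FPKM were also summed over each family and set against the total of the library. The HNRNP genes took 0.746% and 0.660% of the summed FPKM in WT against 0.561% and 0.729% in ZCCHC4 KO1, so the groups overlapped. The SRSF genes took 0.220% and 0.208% in WT against 0.191% and 0.247% in ZCCHC4 KO1, and again the groups overlapped. The SNRP genes stood higher without overlap, from 0.286% and 0.294% to 0.329% and 0.312%. The same held for the SF3 genes, from 0.146% and 0.149% to 0.154% and 0.160%, for the U2AF genes, from 0.0596% and 0.0618% to 0.0742% and 0.0670%, and for the PRPF genes, from 0.0935% and 0.0920% to 0.0953% and 0.104%. The SNRP sum rested largely on SNRPB, whose mean FPKM was 429.6 in WT and 610.6 in ZCCHC4 KO1. The whole SNRP sum was 1467.4 and 1577.6 in WT against 1858 and 1628.7 in ZCCHC4 KO1. Of the 12 SNRP genes, 6 had a log2 fold change above 0 and 6 below, with a median of 0.02. The log2 ratios were taken on the summed FPKM and not on these shares, and came to 0.05 over all tested genes. For the families they were -0.08 for HNRNP, 0.08 for SRSF, 0.20 for SNRP, 0.14 for SF3, 0.27 for U2AF and 0.15 for PRPF. Without ZCCHC4 KO1 replicate 1 the ratio was 0.045 for HNRNP, 0.097 for SNRP and 0.13 for U2AF, and without ZCCHC4 KO1 replicate 2 it was -0.053 for SRSF. With 2 libraries against 2, an exact permutation test cannot give a two-sided p below 0.333, so no test was made on the sums. Median GC content of the tested genes was 40.0% for SRSF and 42.4% for HNRNP. It was 45.5% for SNRP, 47.6% for PRPF, 50.7% for SF3 and 57.0% for U2AF. The sums were not corrected for GC content, and its part in them was not tested.

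**Figure D5:**
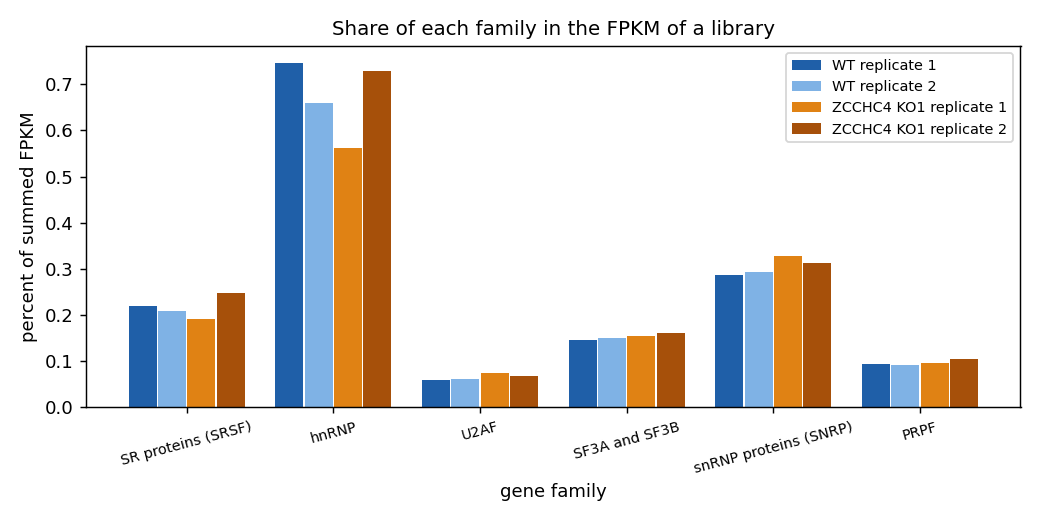
Share of the summed FPKM of a library (percent) taken by each of the 6 families, with 1 bar for each of the 4 libraries. The HNRNP and SRSF bars are higher in WT replicate 1 than in WT replicate 2 and higher in ZCCHC4 KO1 replicate 2 than in replicate 1, whereas the SNRP, SF3, U2AF and PRPF bars are higher in both ZCCHC4 KO1 libraries.

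The genes of the machinery outside the rule were taken from 9 lists of 188 genes, of which 171 were tested. limma called 1 of these 171 genes higher and 1 lower, beside 1.50% and 4.48% of all tested genes. The median log2 fold change of the 171 was 0.10, beside -0.03 over all tested genes. Of the 171, 30.4% were higher without overlap and 11.7% lower, beside 23.1% and 28.5% of all tested genes. SRPK3, a kinase that phosphorylates SR proteins, rose from 0.24 and 0.05 in WT to 3.15 and 2.50 in ZCCHC4 KO1 (log2 fold change 1.74, standard error 0.194, adjusted p = 0.0117). SRPK3 passed the filter on low values only through the ZCCHC4 KO1 libraries, so a gene listed at its WT level could be tested only if it was higher there. With a pseudocount of 0.1 in place of 1, which understates low values less, the log2 fold change of SRPK3 was 3.69. SAP18, which belongs to the ASAP complex at the exon junction, fell from 33.49 and 35.60 to 17.86 and 17.26 (-0.94, standard error 0.141, adjusted p = 0.0238). Of the 10 exon junction proteins tested, 4 were higher without overlap, and SAP18 was the only one lower without overlap. Without WT replicate 1 or WT replicate 2 the adjusted p of SAP18 was 0.107 and 0.176. The calls fell on 1 of 24 tested SR protein kinases and SR-related proteins and 1 of 10 exon junction proteins. No call was made among 12 further snRNP proteins, 10 LSM proteins, 41 other hnRNP proteins and splicing regulators, 12 helicases, 34 factors of the Prp19 complex and the catalytic steps, 8 minor spliceosome proteins and 20 snRNP assembly factors.

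With the GC trend removed, 20 of the 171 (11.7%) were called higher and 5 (2.92%) lower, beside 7.08% and 13.0% of all tested genes. In the list of snRNP assembly and transport factors, 3 of 20 were higher (PRMT5, WDR77 and GEMIN4) and 2 lower (CLNS1A and STRAP), that is, 15% and 10%. PRMT5, the arginine methyltransferase that modifies Sm proteins, was at 123.63 and 138.98 in WT against 197.23 and 171.00 in ZCCHC4 KO1, and its partner WDR77 was at 63.59 and 67.07 and at 102.42 and 87.38 (adjusted p = 0.117 and 0.0909 as deposited). CLNS1A, which carries Sm proteins to the complex, was at 90.23 and 95.29 in WT against 55.35 and 63.41 in ZCCHC4 KO1 (adjusted p = 0.0557). PRMT5 and WDR77 rose and CLNS1A fell with the trend removed, with log2 fold changes of 0.48, 0.58 and -0.54.

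Reads shared with other genes touch the values of many members. More than 20% of the 31-base stretches of the transcript occurred in transcripts of other annotated genes for 17 of the 71 members. For SRSF5, SRSF7, SRSF4 and U2AF2 the share was 0%, and for SRSF6 and SNRPB it was 19.1% and 12.7%. Exons on the opposite strand overlapped 25 members, and the sources used here do not say whether reads were counted by strand. SRSF5, SRSF6, SRSF7, U2AF1L4, HNRNPH2 and SNRPB had no such overlap.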

How the data were processed

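Total RNA from 2 WT and 2 ZCCHC4 KO1 libraries was sequenced. The authors deposited 1 table of FPKM per gene, made with Bowtie2 on GRCh38 and RSEM. Tool versions, annotation and strand setting are not given in the sources used here. The labels name an Illumina HiSeq, and the study's supplement a BGISEQ-500. FPKM held no depth, so counting error is unknown and precision rests on 2 libraries per group. All 4 value columns were matched to samples by name.

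Entrez identifiers were given NCBI symbols (16384 of 16658 matched). Genes at an FPKM of at least 1 in at least 2 libraries were tested on log2(FPKM + 1), which understates changes of low genes, with limma 3.58.1 in R 4.3.3 (empirical Bayes with a trend) and Benjamini-Hochberg adjustment over all 10726, at an adjusted p below 0.05. GC content, neighbors, decay-annotated transcripts and shared 31-base stretches came from GENCODE 44. The GC trend was a natural spline per library on 10540 genes. The limma test without this correction was tried on simulated data with independent noise in each library. The removal of the GC trend was not simulated.

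Genes named by rule were the tested members that limma called and, in each family, those with the highest level, the highest and the lowest fold change, with U2AF1, SNRPN, HNRNPH1 and HNRNPA1L2 where listed, and the called genes of the other lists. All others were named after their values were seen. Members and lists were chosen with earlier results of these data known.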

Additional observations from a re-analysis of the deposited data

How the results depend on the processing

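With 2 libraries per group, the number of calls moved with the processing more than the fold changes did, and FPKM without read totals leave counting error unknown. Of the members, 1 was called higher and 0 lower. The counts were 0 higher with no filter on low values, 0 at an adjusted p below 0.01 and 0 at the study's thresholds (adjusted p below 0.001 and a fold of 2). Median-ratio scaling gave 1 lower. Quantile normalization gave 4 higher and 1 lower, and removing the GC trend 6 and 3. Leaving out 1 library in turn, where the lone library is assumed to vary like the other group, gave 0 to 2 higher and 0 to 3 lower. Over all tested genes, 161 were higher and 480 lower, and the counts became 82 and 262 with no filter, 346 higher after median-ratio scaling, 466 and 721 after quantile normalization, 746 and 1368 without the GC trend, 17 and 86 at an adjusted p below 0.01, 2 and 6 at the study's thresholds, and 97 to 558 and 273 to 1037 with 1 library left out. Of the other splicing genes, 1 was higher and 1 lower, against 0 higher with a minimum FPKM of 5, 2 higher after median-ratio scaling, 8 and 3 after quantile normalization, 20 and 5 without the GC trend, 0 and 0 at both stricter thresholds, and 1 to 9 and 0 to 9 with 1 library left out. ZCCHC4 had a log2 fold change of -1.92 with a pseudocount of 0.1 (adjusted p = 0.0551) and -1.48 with no filter (adjusted p = 0.115), neither of which passed, and -1.81 to -1.15 with 1 library left out. With median-ratio scaling the summed log2 ratio was 0.22 for SF3 and 0.23 for PRPF, and with 1 library left out it ran from -0.053 to 0.20 for SRSF, -0.22 to 0.045 for HNRNP, 0.097 to 0.29 for SNRP, 0.13 to 0.39 for U2AF, 0.088 to 0.19 for SF3 and 0.13 to 0.18 for PRPF. The sign turned for some of the genes given a log2 fold change of their own. These were HNRNPA2B1 with quantile normalization (-0.027), HNRNPH1 with median-ratio scaling (0.016) and without the GC trend (0.058, also with either pairing), and PRPF8 with median-ratio scaling (0.051). Other members near 0 turned as well, such as HNRNPA0 and SRSF3 without the GC trend (from -0.082 and -0.035 to 0.026 and 0.044). With 1 library left out, the log2 fold change ran from -0.16 to 0.48 for HNRNPA1L2, from -0.27 to 0.31 for HNRNPA2B1, from -0.38 to 0.26 for HNRNPH1, from -0.093 to 0.52 for HNRNPH3, from -0.60 to 0.0061 for HNRNPR, from -0.10 to 0.044 for PRPF8, from -0.63 to 0.34 for SF3B1, from -0.58 to 0.010 for SRSF1 and from -0.046 to 0.26 for U2AF1. The cause of these shifts was not tested beyond the GC trend.

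The libraries share replicate numbers only, and the differences between replicates of WT and of ZCCHC4 KO1 correlated at -0.787 across genes. With the replicate number as a block, 1 of 68 tested members was called higher and 0 lower. Of all 10726 tested genes, 107 were higher and 355 lower. Of the 171 other splicing genes, 1 was higher and 0 lower. With the block and the GC trend removed, 6 members were higher and 1 lower, 503 of all tested genes were higher and 1016 lower, and 12 and 3 of the other splicing genes. With the pairs crossed, a choice made after seeing the data, the calls were 15 and 10 members, 2309 and 2986 of all tested genes and 51 and 32 of the other splicing genes, and with the GC trend removed as well 20 and 12, 2460 and 3098, and 63 and 31.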
